A study of Mus musculus with 15 samples.

Results

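The genes described here are 10 nuclear genes that control the copying, packaging and transcription of mitochondrial DNA: the 3 coactivators of the PGC-1 family (Ppargc1a, Ppargc1b and Pprc1), the transcription factors Nrf1 and Gabpa, the mitochondrial transcription factors Tfam, Tfb1m and Tfb2m, and the 2 subunits of the mitochondrial DNA polymerase (Polg and Polg2). They were chosen by name, with earlier results of these data known. All 10 were found among the 46123 genes of the deposited tables, each as a single row. RNA was sequenced from 15 libraries of bone marrow hematopoietic stem cells (HSCs) of wild-type C57BL/6 mice aged 8 to 10 weeks, each made from 100 sorted cells. The groups were HSCs 4 days after 5-fluorouracil (5-FU day4, 4 libraries), HSCs of untreated mice (4 libraries), HSCs cultured with nifedipine (4 libraries) and HSCs cultured without it as the control (3 libraries). 5-FU kills dividing cells and is used to drive HSCs out of rest, and nifedipine blocks L-type calcium channels. The cultured cells were sorted from those that had divided no more than 3 times, per the series design text. The sources used here give neither the drug doses nor how long cells were cultured, nor whether each replicate came from its own mouse or culture, so p-values measure the spread between these libraries.

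Mitochondrial DNA encodes a small set of respiratory chain subunits with the ribosomal and transfer RNAs needed to make them, and every protein that copies, packs or transcribes it is encoded in the nucleus. PGC-1 coactivators bind transcription factors such as NRF1, GABP and the estrogen-related receptors and raise the transcription of mitochondrial genes, Tfam among them. HSCs at rest are known for low mitochondrial activity that increases when they divide. Nrf1 here is nuclear respiratory factor 1, and Gabpa is the DNA-binding subunit of GABP, also called nuclear respiratory factor 2.

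Promoter sequences are shown for the genes with a match to a motif of these pathways, because Gabpa itself is among the genes measured and its protein binds the ETS core. RefSeq windows of the GRCm38.p6 assembly were found for 9 of the 10 genes (10 windows, since Nrf1 has 2), and the 250 bases upstream of each start were searched on both strands for 4 motifs chosen after values were seen. The ETS core CCGGAAG was in 4 of the 10 windows, those of Tfam, Gabpa, Polg and Polg2, against 6.91% of all 32851 windows. The sites follow as 30 bases 5′ to 3′ on the gene's strand, with the ETS core or its reverse complement CTTCCGG in capitals:
Tfam, chr10:71238073-71238102, minus strand: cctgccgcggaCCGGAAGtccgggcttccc
Gabpa, chr16:84835020-84835049, plus strand: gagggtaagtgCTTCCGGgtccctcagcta
Polg, chr7:79466293-79466322, minus strand: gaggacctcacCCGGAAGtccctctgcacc
Polg2, chr11:106779548-106779577, minus strand: cgggtgacgctCTTCCGGgggcgtggtcta
The core lay 47 to 41 bases upstream of the RefSeq start in Tfam, 93 to 87 in Gabpa, 38 to 32 in Polg and 29 to 23 in Polg2. The deposited features of Tfam, Gabpa and Polg2 reach further upstream than these sites, and that of Polg ends within its site, at 79466306. Their exon reads do not separate transcripts from different starts.

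The window of Ppargc1a held no ETS core. It was the only one of the 10 with the core of the cAMP response element (CRE), TGACGT, which 6.47% of all windows held. CREB, the factor that binds this element, is a known activator of Ppargc1a in liver and muscle. The 250 bases upstream of its RefSeq start are given 5′ to 3′ with the reverse complement ACGTCA in capitals, 50 to 45 bases upstream of the start:
Ppargc1a, chr5:51567726-51567975, minus strand: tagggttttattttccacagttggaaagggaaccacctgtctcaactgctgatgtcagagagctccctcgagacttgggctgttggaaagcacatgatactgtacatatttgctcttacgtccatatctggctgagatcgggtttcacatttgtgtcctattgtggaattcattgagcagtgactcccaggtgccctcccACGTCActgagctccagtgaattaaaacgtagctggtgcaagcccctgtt
The deposited feature of Ppargc1a reaches further upstream than this start, and its exon reads do not separate transcripts from different starts. Neither the NRF1 palindrome (GCGCA followed directly by its reverse complement, in 0.782% of all windows) nor the core motif of the estrogen-related receptors, AAGGTCA (4.08% of all windows), was found in any of the 10 windows. The motifs do not overlap each other. These matches describe letters in short windows.

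In the deposited tables (build mm10, positions counted from 1) the coactivator genes lay on chromosome 5 at 51454249 to 52116058 (Ppargc1a), chromosome 18 at 61291445 to 61401462 (Ppargc1b) and chromosome 19 at 46056525 to 46072909 (Pprc1). Nrf1 lay on chromosome 6 at 30047988 to 30153458, and Gabpa on chromosome 16 at 84834925 to 84863783. Tfam lay on chromosome 10 at 71225477 to 71238330, Tfb1m on chromosome 17 at 3519256 to 3557777 and Tfb2m on chromosome 1 at 179528052 to 179546305. Polg lay on chromosome 7 at 79448910 to 79466306 and Polg2 on chromosome 11 at 106754821 to 106780011. The libraries do not mark strand, and 4 of these genes overlap another gene that has reads in all groups: Polg2 overlaps Milr1 by 13974 bases, Polg overlaps Fanci by 1356 bases and Gabpa overlaps Atp5j by 701 bases, and Tfb1m overlaps Tiam2 by 142 bases and holds the whole of Cldn20 (660 bases). These overlaps are of whole gene spans, introns included, and the exon length of Polg2 is 2139 bases. How much of each overlap is exon was not measured. Reads of exon bases shared by 2 genes cannot be told apart, and the values of the neighbours are given beside the results.

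The libraries held 9775640 to 17397392 exon reads with 5-FU and 6171730 to 16685285 in untreated HSCs, and 17582453 to 22372771 with nifedipine and 20145079 to 26673045 in controls. All 14 HSC markers examined had reads in every library, and their summed level was 4100 to 4440 CPM with 5-FU and 5790 to 6190 CPM in untreated HSCs, and 2930 to 3230 CPM with nifedipine and 1980 to 2050 CPM in controls. CPM is the count scaled to the exon reads of its library, with TMM factors over the 15 libraries. The summed level of 20 mitosis genes was 3530 to 4100 CPM with 5-FU and 195 to 924 CPM in untreated HSCs, and 2590 to 3000 CPM with nifedipine and 4160 to 4290 CPM in controls. Exon reads were 30.0% to 31.9% of the read total behind the deposited RPKM values with 5-FU and 25.0% to 26.3% in untreated HSCs, and 31.8% to 38.4% with nifedipine and 35.5% to 38.9% in controls. All 37 mitochondrial features had 0 reads in all 15 libraries, so the transcripts of mitochondrial DNA itself were not analysed here. The 5-FU pair and the nifedipine pair are separate experiments.

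Levels between genes were compared as deposited RPKM, the count per exon length and per read total. Gabpa had the highest mean in all 4 groups, with 8.86 ± 0.618 RPKM after 5-FU, 5.86 ± 0.0418 RPKM in untreated HSCs, 9.16 ± 0.480 RPKM with nifedipine and 12.4 ± 0.760 RPKM in controls (SD; n = 4, 4, 4 and 3). Ppargc1a was lowest in all 4, with 0.234 ± 0.0515 RPKM after 5-FU, 0.373 ± 0.0644 RPKM in untreated HSCs, 0.0506 ± 0.0259 RPKM with nifedipine and 0.0362 ± 0.00438 RPKM in controls. It was below the next gene in every library. Ppargc1b and Polg2 filled the 2 places above it in each group, Polg2 above Ppargc1b in both fresh groups (1.87 against 1.84 RPKM after 5-FU, 2.77 against 1.12 RPKM in untreated HSCs) and below it in both cultured groups (1.33 against 1.56 RPKM with nifedipine, 1.13 against 1.37 RPKM in controls). These 2 genes overlapped in every group but the untreated one. The other 7 genes lay between 3.02 and 5.86 RPKM in untreated HSCs, where all neighbours in the order overlapped between libraries except Gabpa over Tfb2m and Polg over Nrf1. After 5-FU the order among the 7 was Gabpa, Pprc1, Tfam, Polg, Tfb2m, Tfb1m and Nrf1, with no overlap only between Pprc1 and Tfam. With nifedipine it was Gabpa, Tfb2m, Tfam, Pprc1, Tfb1m, Polg and Nrf1, with no overlap between Tfb2m and Tfam or between Tfb1m and Polg. In controls it was Gabpa, Tfb2m, Pprc1, Tfam, Nrf1, Polg and Tfb1m, with no overlap between Gabpa and Tfb2m or between Tfam and Nrf1.

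Within the PGC-1 family most of the RPKM belonged to Pprc1, the PGC-1-related coactivator known to respond to serum and growth signals. Its share of the family's summed RPKM was 79.6% ± 1.39 after 5-FU and 72.6% ± 2.12 in untreated HSCs (SD, n = 4 each), and 78.2% ± 2.11 with nifedipine and 86.7% ± 0.740 in controls (SD, n = 4 and 3). The share of Ppargc1a, the coactivator best known from muscle, brown fat and liver, was 2.31% ± 0.499 after 5-FU and 6.88% ± 1.29 in untreated HSCs, and 0.677% ± 0.334 with nifedipine and 0.343% ± 0.0524 in controls. Ppargc1b, its closest relative, held 18.1% ± 1.57 after 5-FU and 20.5% ± 1.07 in untreated HSCs, and 21.1% ± 2.21 with nifedipine and 12.9% ± 0.727 in controls. As a measure of background, chosen after values were seen, the mean RPKM of 1652 olfactory receptor features was computed per library. Ppargc1a stood 13.9 to 29.5 times above it after 5-FU, 35.2 to 56.7 times in untreated HSCs, 5.08 to 23.8 times with nifedipine and 11.1 to 13.4 times in controls.

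**Figure D1:**
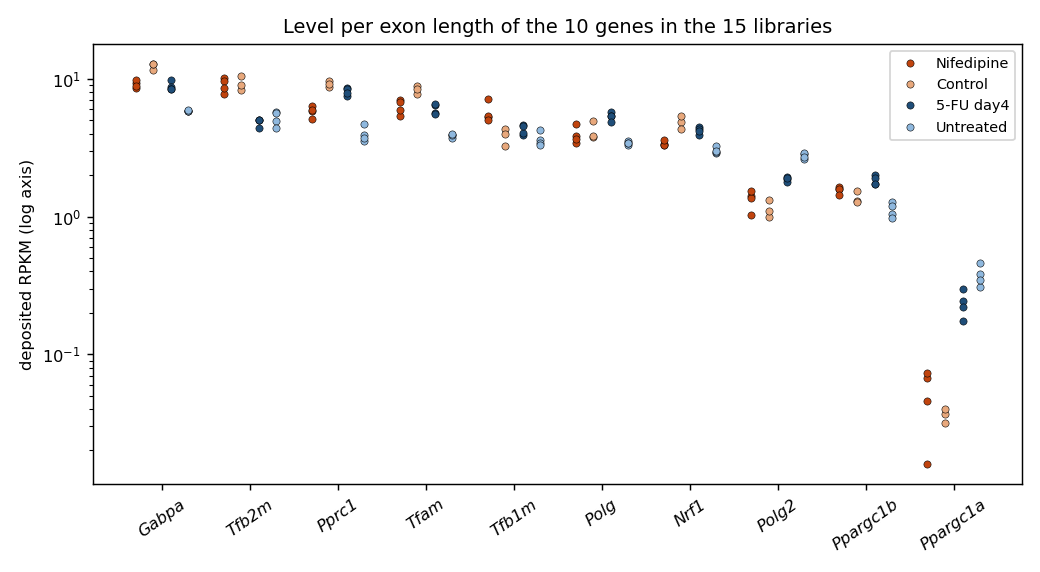
Deposited RPKM (log axis) of the 10 genes, ordered by their mean in untreated HSCs. Each point is 1 library, and colours give the group (nifedipine, control, 5-FU day4 and untreated from left to right within a gene). Gabpa is highest on average in every group, and Ppargc1a lies below every other gene in each library, at 0.0362 RPKM on average in controls and 0.373 RPKM in untreated HSCs.

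The comparison of 5-FU with untreated mice asks how these genes stand in HSCs that have been driven into division. After 5-FU, 6 of the 10 genes were higher (Ppargc1b, Pprc1, Nrf1, Gabpa, Tfam and Polg) and 3 were lower (Ppargc1a, Polg2 and Tfb2m). Tfb1m did not pass. Of all 13384 genes tested, 26.7% were called higher and 23.8% lower (50.5% in all) at an adjusted p of 0.05 or less in edgeR's quasi-likelihood test. The median log2 fold change was 0.34 for the 10 genes and -0.02 for all genes tested.

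The 3 coactivators did not move alike. Pprc1 had 171, 169, 159 and 165 CPM in the 5-FU libraries, against 93.2, 83.2, 109 and 90.9 CPM in the untreated libraries. The groups stood apart, and its log2 fold change of 0.83 ± 0.07 (SE; adjusted p = 1.37e-05) was the largest rise of the 10. In these bulk samples a change in the share of cells of a type and a change of RNA per cell cannot be told apart. Ppargc1b had 59.5, 70.6, 70.4 and 62.9 CPM with 5-FU, against 43.0, 39.9, 52.1 and 50.1 CPM without. Every 5-FU library was above every untreated one (log2 fold change 0.51 ± 0.10, adjusted p = 0.00163).

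Ppargc1a went the other way. It had 10.7, 6.33, 9.28 and 8.32 CPM in the 5-FU libraries, against 16.3, 13.1, 14.5 and 20.1 CPM in the untreated libraries. All 4 untreated libraries were above all 4 after 5-FU, and the log2 fold change was -0.87 ± 0.19 (adjusted p = 0.00333), or 0.547 times the untreated level. These levels rest on 64 to 193 reads per library with 5-FU and 89 to 312 reads in untreated HSCs. Markers of endothelial and stromal cells also differed: their summed level was 114, 130, 156 and 536 CPM in 5-FU replicates 1 to 4, against 924, 1890, 147 and 671 CPM in untreated replicates 1 to 4, and 7 of the 15 markers were lower after 5-FU. The sums and the Ppargc1a values above are both listed by replicate number. The part of these markers in the change of Ppargc1a was not tested.

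Both nuclear respiratory factors rose, Gabpa 1.32-fold and Nrf1 1.22-fold. Gabpa, which carries the ETS domain that binds CCGGAAG, had 154, 138, 141 and 139.9 CPM with 5-FU, against 109, 109, 108 and 113 CPM without (log2 fold change 0.40 ± 0.05, adjusted p = 0.00013). Nrf1 had 154, 135, 155 and 149 CPM with 5-FU, against 118, 131, 117 and 125 CPM without (0.28 ± 0.06, adjusted p = 0.00343). The groups of both genes stood apart, those of Nrf1 by little: its lowest 5-FU library was at 135 CPM and its highest untreated library at 131 CPM. Atp5j, the ATP synthase gene whose first bases overlap those of Gabpa, rose by 0.81 on the log2 scale.

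Tfam, which wraps mitochondrial DNA into nucleoids and bends its promoters, had 79.2, 80.7, 72.9 and 70.8 CPM with 5-FU, against 57.0, 53.3, 55.8 and 58.9 CPM without. All 5-FU libraries were higher (log2 fold change 0.44 ± 0.07, adjusted p = 0.000435). Its 2 partner genes did not follow it. Tfb2m, the factor that opens the mitochondrial promoters with the RNA polymerase, had 41.4, 41.8, 38.2 and 43.5 CPM with 5-FU, against 55.9, 47.7, 42.0 and 56.9 CPM without. The groups overlapped, and its log2 fold change of -0.29 ± 0.11 (adjusted p = 0.0411) was not past the threshold without any 1 of 7 libraries (all but untreated replicate 3; adjusted p 0.0507 to 0.114) or with library sizes set to the RPKM read total (-0.09, adjusted p = 0.503). Tfb1m, which methylates the small ribosomal RNA of mitochondria, had 19.3, 20.1, 24.0 and 23.4 CPM with 5-FU, against 20.9, 19.8, 24.4 and 19.9 CPM without. No difference was detected, and the 95% interval of its log2 fold change ran from -0.19 to 0.26. Its overlapping neighbours Cldn20 and Tiam2 did not pass (-0.26, adjusted p = 0.498, and -0.63, adjusted p = 0.0521).

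The 2 subunits of the mitochondrial DNA polymerase moved in opposite directions. Polg, the catalytic subunit, had 90.3, 85.9, 89.3 and 80.6 CPM with 5-FU, against 66.8, 61.8, 62.7 and 65.9 CPM without (log2 fold change 0.44 ± 0.06, adjusted p = 0.000212). Polg2, the accessory subunit that holds the polymerase on DNA, had 12.1, 11.8, 13.3 and 12.9 CPM with 5-FU, against 21.9, 22.2, 19.8 and 21.4 CPM without (-0.76 ± 0.11, adjusted p = 0.000194). Neither gene's groups overlapped. The ratio of Polg to Polg2 in RPKM, formed after the values were seen, was 2.85 ± 0.227 after 5-FU and 1.24 ± 0.0685 in untreated HSCs (SD, n = 4 each). Fanci, a DNA repair gene that overlaps the 3′ end of Polg, rose by 1.54 ± 0.28 on the log2 scale (adjusted p = 0.000981), and Milr1, which overlaps Polg2, had a log2 fold change of 0.13 (adjusted p = 0.655). All 20 mitosis genes rose in the same comparison, and 9 of 14 HSC markers fell, and the part of these shifts in the changes of the 10 genes was not tested. Apart from Tfb2m, the calls held under all 18 alternatives.

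**Figure D2:**
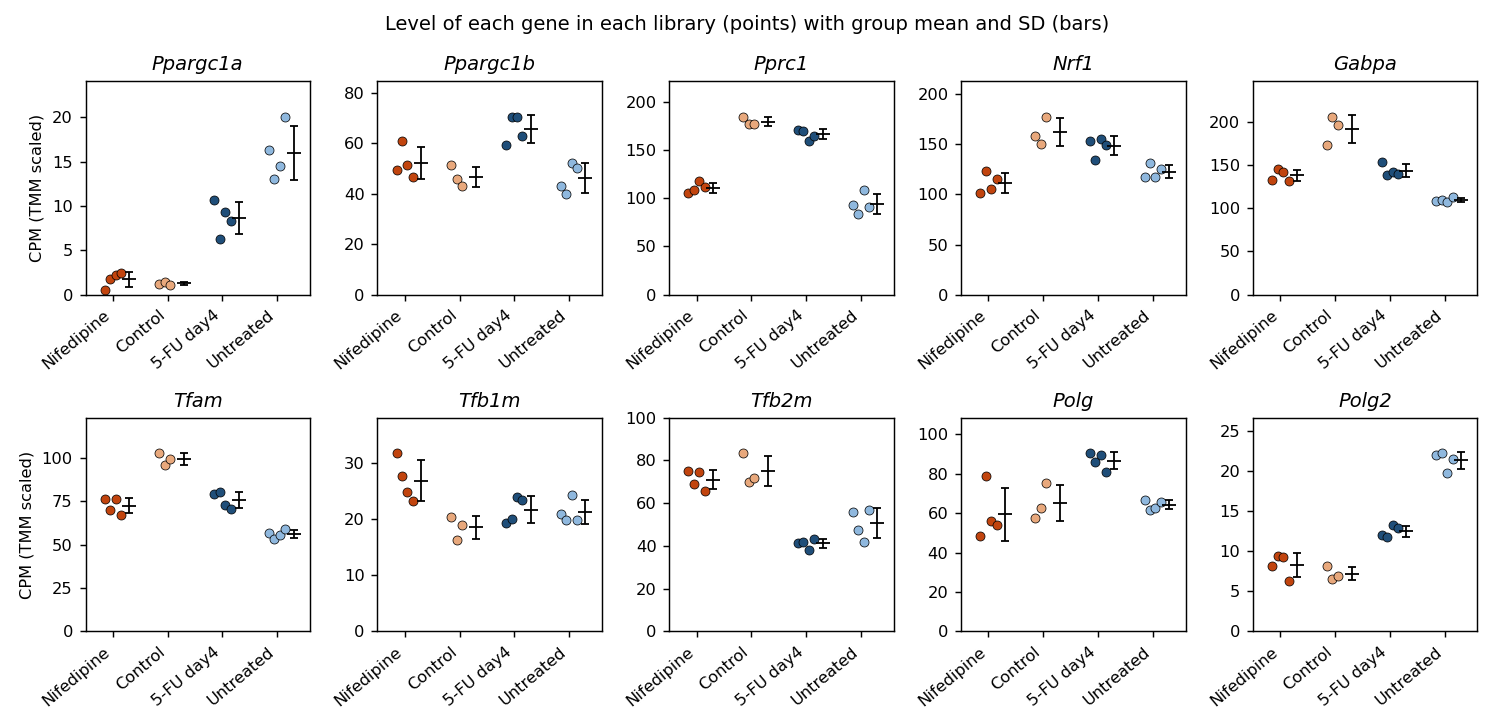
Level of each of the 10 genes in each library, in CPM after TMM scaling (axes start at 0). Points are single libraries in the order of their replicate numbers, and the bar beside them is the group mean with its SD (n = 4, and 3 for control). Pprc1, Nrf1, Gabpa and Tfam are lower with nifedipine than in controls and higher with 5-FU than in untreated HSCs, without overlap, and Ppargc1a is at 2.46 CPM or less in all cultured libraries.

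The comparison of nifedipine with control asks what blocking calcium channels in culture does to the same genes. With nifedipine, 4 of the 10 were lower (Pprc1, Nrf1, Gabpa and Tfam) and 1 was higher (Tfb1m). Of the 12807 genes tested, 24.2% were called lower and 25.8% higher (49.9% in all). The median log2 fold change was -0.11 for the 10 genes and 0.02 for all genes tested.

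Pprc1 had 105.5, 109, 118 and 111 CPM with nifedipine, against 184, 176 and 177 CPM in controls. The lowest control was far above the highest nifedipine library, and the log2 fold change of -0.70 ± 0.07 (adjusted p = 1.04e-07) was the largest of the 10. Ppargc1b had 49.5, 61.1, 51.3 and 46.6 CPM with nifedipine, against 51.2, 45.7 and 43.3 CPM in controls. Its groups overlapped (0.15 ± 0.10, adjusted p = 0.246, 95% interval -0.05 to 0.36). Ppargc1a had 0.515, 1.76, 2.24 and 2.46 CPM with nifedipine, on 11 to 50 reads per library, against 1.27, 1.47 and 1.10 CPM in controls, on 21 to 30 reads. No difference was detected, and the 95% interval of its log2 fold change ran from -0.65 to 1.53.

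Nrf1 had 101, 123, 105 and 115 CPM with nifedipine, against 158, 150.4 and 177 CPM in controls (log2 fold change -0.55 ± 0.08, adjusted p = 1.8e-05). Gabpa had 132, 145, 142 and 132 CPM with nifedipine, against 174, 206 and 196 CPM in controls (-0.48 ± 0.07, adjusted p = 2.4e-05). Neither gene's groups overlapped. Atp5j fell by 0.34 on the log2 scale in the same libraries.

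Tfam had 76.5, 70.3, 76.4 and 67.4 CPM with nifedipine, against 103, 95.9 and 99.3 CPM in controls, again without overlap (log2 fold change -0.45 ± 0.08, adjusted p = 7.7e-05). Tfb1m was the one gene of the 10 that rose: it had 31.7, 27.7, 24.8 and 23.3 CPM with nifedipine, against 20.4, 16.3 and 19.0 CPM in controls (0.53 ± 0.14, adjusted p = 0.00346). Cldn20, which lies inside it, was at 1.88 CPM with nifedipine and 1.32 CPM in controls (0.52 ± 0.61, adjusted p = 0.51), and Tiam2 was at 2.07 CPM with nifedipine and 2.12 CPM in controls (-0.04, adjusted p = 0.954). Tfb2m had 74.9, 68.8, 74.4 and 65.8 CPM with nifedipine, against 83.3, 70.1 and 72.0 CPM in controls, which overlapped (adjusted p = 0.431, 95% interval -0.25 to 0.08). The RPKM ratio of Tfb2m to Tfb1m, formed after the values were seen, was 1.60 ± 0.179 with nifedipine and 2.43 ± 0.150 in controls (SD, n = 4 and 3).

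Neither polymerase subunit passed the test. Polg had 48.5, 78.8, 56.0 and 54.1 CPM with nifedipine, against 57.6, 62.4 and 75.4 CPM in controls (log2 fold change -0.14 ± 0.13, adjusted p = 0.422). Without nifedipine replicate 2, the highest of the 4, the value was -0.30 (adjusted p = 0.0248), and with the exon length trend removed it was -0.35 (adjusted p = 0.0222). Nifedipine replicate 2 also had the lowest exon share of its group, 31.8%. Polg2 had 8.19, 9.43, 9.22 and 6.25 CPM with nifedipine, against 8.12, 6.54 and 6.89 CPM in controls (0.20 ± 0.21, adjusted p = 0.465, 95% interval -0.21 to 0.61). Milr1, which overlaps it, rose by 0.95 on the log2 scale (adjusted p = 0.0247), and Fanci did not pass (-0.12, adjusted p = 0.383). Among mitosis genes, 13 of 20 were lower and 1 higher with nifedipine, and 9 of 14 HSC markers were higher and 3 lower, and their part in the changes of the 10 genes was not tested. All 5 calls held under all 16 alternatives.

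The 5-FU and nifedipine effects share no library, so their difference could be tested over all 15. It passed for 8 of the 10 genes and for 55.4% of the 14076 genes tested. The 5-FU effect lay above the nifedipine effect for Pprc1, Nrf1, Gabpa, Tfam and Polg (26.4% of genes tested) and below it for Ppargc1a, Tfb1m and Polg2 (29% of genes tested). The difference of the 2 log2 fold changes was 1.50 ± 0.10 for Pprc1 (adjusted p = 1.65e-09), 0.86 ± 0.09 for Tfam (6.45e-07), 0.85 ± 0.09 for Gabpa (3.8e-07) and 0.80 ± 0.11 for Nrf1 (6.26e-06). These 4 genes were each higher with 5-FU and lower with nifedipine. The share of all genes tested with both calls, or with no overlap between groups, was not computed. The difference was -0.99 ± 0.21 for Polg2 (adjusted p = 0.000559). It was smaller or less certain for Polg (0.55 ± 0.17, adjusted p = 0.0135, and 0.053 without control replicate 3) and Tfb1m (-0.52 ± 0.18, adjusted p = 0.0193, and 0.0626 without control replicate 2). For Ppargc1a it was -1.34 ± 0.48 (adjusted p = 0.0265), and the adjusted p was 0.0501 to 0.0904 without untreated replicate 4, 5-FU replicate 2, control replicate 1 or 3, or nifedipine replicate 3 or 4. The differences of Ppargc1b (0.33 ± 0.15, adjusted p = 0.0695) and Tfb2m (-0.23 ± 0.14, adjusted p = 0.164) did not pass.

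**Figure D3:**
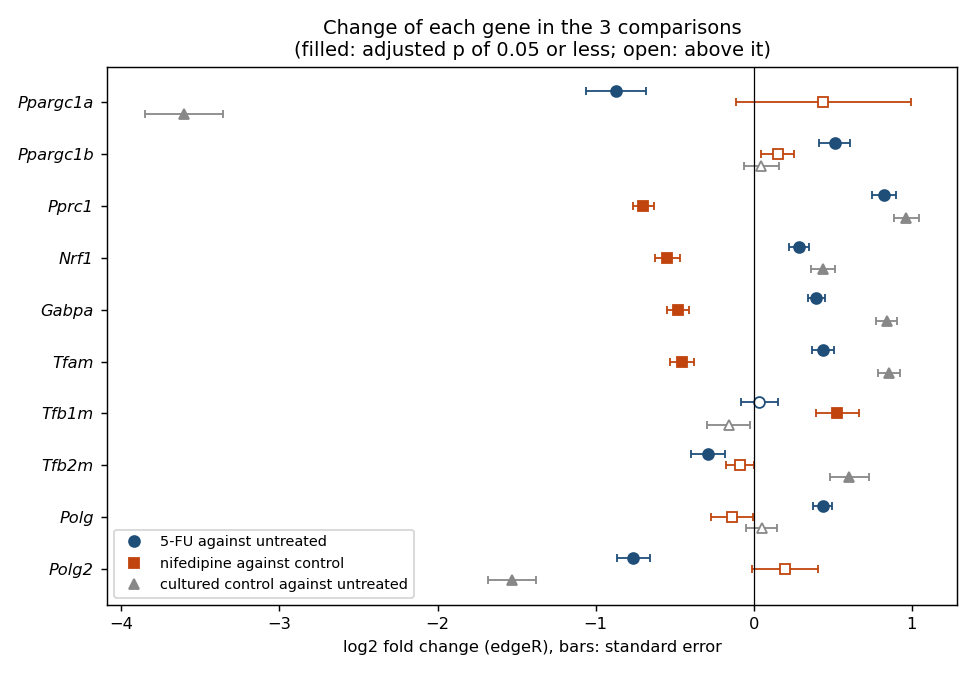
Log2 fold change of the 10 genes from edgeR, with bars of 1 standard error, in 5-FU against untreated HSCs (circles), nifedipine against control (squares) and cultured control against untreated HSCs (triangles). Filled symbols have an adjusted p of 0.05 or less. Pprc1, Nrf1, Gabpa and Tfam lie right of 0 with 5-FU and left of 0 with nifedipine, and Ppargc1a lies at -3.60 in cultured controls.

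Cultured controls were also set against untreated HSCs. Culture, experiment and sequencing change together here and cannot be told apart, and this comparison shares its untreated libraries with the 5-FU comparison and its control libraries with the nifedipine comparison. In controls, 5 of the 10 genes were higher (Pprc1, Nrf1, Gabpa, Tfam and Tfb2m) and 2 were lower (Ppargc1a and Polg2), where 35.8% of the 13520 genes tested were higher and 36.1% lower (72% in all). Ppargc1a had 1.27, 1.47 and 1.10 CPM in controls, against 16.3, 13.1, 14.5 and 20.1 CPM in untreated HSCs. No other gene of the 10 changed as much: its log2 fold change was -3.60 ± 0.25 (adjusted p = 9.03e-07), or 0.0822 times the untreated level. Endothelial and stromal markers summed to 148 to 171 CPM in controls, where Cxcl12, Pdgfra, Col3a1, Vcam1 and Adipoq were at 0. Of the 15 markers, 14 were lower than in untreated HSCs, and Pecam1 was higher, at 131 CPM in controls and 87.3 CPM in untreated HSCs. The part of these markers in the change of Ppargc1a was not tested. Polg2 had 8.12, 6.54 and 6.89 CPM in controls, against 21.9, 22.2, 19.8 and 21.4 CPM in untreated HSCs (-1.53 ± 0.15, adjusted p = 1.09e-05). Milr1 fell by 1.36 on the log2 scale.

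The 5 that rose had changes between 0.44 and 0.97. Pprc1 rose by 0.97 ± 0.08 (adjusted p = 3.01e-06), Tfam by 0.85 ± 0.07 (2.81e-06), Gabpa by 0.84 ± 0.07 (2.73e-06) and Nrf1 by 0.44 ± 0.08 (0.000625) on the log2 scale, each without overlap between the groups. Tfb2m had 83.3, 70.1 and 72.0 CPM in controls, against 55.9, 47.7, 42.0 and 56.9 CPM in untreated HSCs (0.61 ± 0.12, adjusted p = 0.00157). Ppargc1b (0.05 ± 0.11), Tfb1m (-0.16 ± 0.14) and Polg (0.05 ± 0.10) did not pass. Of the genes that overlap Tfb1m, Cldn20 fell by 1.14 (adjusted p = 0.0453) and Tiam2 by 2.30 (adjusted p = 8.86e-06) on the log2 scale. Atp5j, which overlaps Gabpa, rose by 1.32 (adjusted p = 1.52e-07), and Fanci, which overlaps Polg, rose by 1.58 (adjusted p = 0.00101). Removing the trend of fold change with exon length gave 0.89 for Ppargc1b (adjusted p = 5.8e-05) and 0.46 for Polg (0.00233), and library sizes set to the RPKM read total gave 0.29 for Polg (0.0276).

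Other genes of mitochondrial DNA replication and the nucleoid were examined as a list of 15 that leaves out the 10 genes above. After 5-FU, where 26.7% of all genes tested were higher and 23.8% lower, 6 of 14 tested were higher, with a median log2 fold change of 0.29. The count lower was 0 in edgeR, 0 at an unadjusted p under 0.05, and 0 by DESeq2 and limma-voom, and 1 was lower without untreated replicate 3. With library sizes from the RPKM read total 11 were higher, where 5148 of all genes were higher and 1839 lower. Dna2, a nuclease and helicase that trims flaps in both nuclear and mitochondrial DNA, rose to 115 CPM with 5-FU, against 33.1 CPM in untreated HSCs. Fen1, the flap endonuclease of both compartments, rose to 89.5 CPM with 5-FU, against 26.1 CPM in untreated HSCs (log2 fold changes 1.81 ± 0.15 and 1.78 ± 0.15). Both of these also act in copying nuclear DNA. Lonp1, the matrix protease known to degrade TFAM, rose by 0.40 ± 0.08, to 75.1 CPM with 5-FU, against 57.1 CPM in untreated HSCs (adjusted p = 0.00195). The replicative helicase gene, listed as Peo1 (now Twnk), had 49.3 CPM with 5-FU and 45.5 CPM in untreated HSCs (0.13 ± 0.11, adjusted p = 0.374). Ssbp1, the single-strand binding protein, had 52.9 CPM with 5-FU and 51.1 CPM in untreated HSCs (0.06 ± 0.10, adjusted p = 0.668).

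With nifedipine, 12 of the 15 were lower and 1 higher (against 24.2% and 25.8% of all genes tested), and the list median was -0.54. Lig3, the only DNA ligase of mitochondria, fell to 83.8 CPM with nifedipine, against 149 CPM in controls (log2 fold change -0.83 ± 0.07, adjusted p = 4.48e-08). Fen1 fell to 92.2 CPM with nifedipine, against 158 CPM in controls, and Atad3a, a membrane ATPase tied to nucleoids, fell to 53.8 CPM with nifedipine, against 83.7 CPM in controls. Peo1 and Ssbp1 were both lower, at -0.33 ± 0.09 (adjusted p = 0.00624) and -0.41 ± 0.11 (adjusted p = 0.0045), the first not past the threshold with library sizes from the RPKM read total (0.0548). The one gene that rose was Primpol, a primase-polymerase that restarts stalled forks, at 35.7 CPM with nifedipine and 23.7 CPM in controls (0.59 ± 0.11, adjusted p = 0.000331). In controls against untreated HSCs 9 of the 15 were higher, those of smallest p being Fen1 (2.63), Lonp1 (1.07) and Dna2 (2.13), and Primpol alone was lower (-0.80). The shares over all genes tested were 35.8% higher and 36.1% lower.

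Of 15 genes that supply nucleotides for mitochondrial DNA, 5 were higher and 6 lower after 5-FU (against 26.7% and 23.8% of all genes tested). Among those that rose were 3 subunit genes of succinyl-CoA ligase (log2 fold changes of 0.61 for Suclg1, 0.58 for Suclg2 and 0.48 for Sucla2) and Nme4 (0.35, with adjusted p 0.0567 to 0.0701 without untreated replicate 1 or 4 or 5-FU replicate 2 or 4, and 0.028 with adjusted p = 0.844 with the exon length trend removed). Among those that fell were Rrm2b, the ribonucleotide reductase subunit used outside S phase, at 36.6 CPM with 5-FU and 61.8 CPM in untreated HSCs (-0.75 ± 0.13). Mpv17, an inner membrane protein whose loss depletes mitochondrial DNA, fell by 0.68 ± 0.10, and Slc25a36, a pyrimidine nucleotide carrier, fell by 0.42 ± 0.07. With nifedipine 6 of the 15 were higher and 4 lower (against 25.8% and 24.2% of all genes tested). Rrm2b rose to 40.8 CPM with nifedipine, against 25.7 CPM in controls (0.66 ± 0.11), Dguok, the purine deoxynucleoside kinase of the matrix, rose by 0.73 ± 0.12, and Slc25a36 rose by 0.64 ± 0.08. Among those that fell were Suclg1 (-0.50), Suclg2 (-0.43) and Sucla2 (-0.38). In controls against untreated HSCs 5 rose (among them Suclg1, Sucla2, Suclg2 and Slc25a33) and 7 fell, those of smallest p being Slc25a36 (-0.93), Rrm2b (-1.23) and Dguok, at 20.2 CPM in controls and 41.7 CPM in untreated HSCs. The shares over all genes tested there were 35.8% higher and 36.1% lower.

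Of 30 genes of mitochondrial transcription and RNA handling, 10 were higher and 3 lower after 5-FU (against 26.7% and 23.8% of all genes tested). The list's median log2 fold change was 0.22. With library sizes from the RPKM read total 18 were higher and 1 lower (5148 and 1839 over all genes). Rexo2, the oligoribonuclease that clears short RNAs, rose to 89.7 CPM with 5-FU, against 43.6 CPM in untreated HSCs (1.04 ± 0.10, adjusted p = 1.62e-05). Lrpprc, which stabilises mitochondrial messenger RNAs, rose to 128 CPM with 5-FU, against 87.4 CPM in untreated HSCs (0.56 ± 0.07), and Fastkd2 rose by 0.55 ± 0.11. The 3 that fell were Mterf1b (-1.17 ± 0.27), Nsun4 (-0.39 ± 0.11) and Mrm1 (-0.24 ± 0.09). Mterf1b has a near-identical copy that can share its reads, Nsun4 did not pass with library sizes from the RPKM read total (-0.19, adjusted p = 0.191), and Mrm1 did not pass without any 1 library other than 5-FU replicate 3 (adjusted p 0.0604 to 0.125). Polrmt, the mitochondrial RNA polymerase, is also in the list of replication genes. It had 27.8 CPM with 5-FU and 23.5 CPM in untreated HSCs (0.25 ± 0.10, adjusted p = 0.062).

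With nifedipine 15 of the 30 were lower and 1 higher (against 24.2% and 25.8% of all genes tested, list median -0.36). Elac2, which cuts the 3′ ends of transfer RNAs, fell to 47.2 CPM with nifedipine, against 85.5 CPM in controls (-0.86 ± 0.08, adjusted p = 8.39e-08). Tbrg4 fell by 0.75 ± 0.08 and Lrpprc by 0.70 ± 0.07. Polrmt, whose call counts in both lists, was at 22.3 CPM with nifedipine and 28.1 CPM in controls (-0.33 ± 0.12, adjusted p = 0.0276, and 0.0642 to 0.125 without control replicate 2 or 3 or nifedipine replicate 1 or 3). The one gene that rose was Hsd17b10, a subunit of mitochondrial RNase P (0.31 ± 0.09, adjusted p = 0.00693). In controls against untreated HSCs 21 of the 30 were higher (against 35.8% of all genes tested), those of smallest p being Rexo2 (2.06), Fastkd3 (1.59) and Fastkd2 (1.40). The 3 that were lower (against 36.1% of all genes tested) were Mrm1, Nsun4 and Mterf2. Mrm1 lost its call without control replicate 1 or 2, Nsun4 without control replicate 2 or 3, and Mterf2 without untreated replicate 1, 2 or 4 or control replicate 2 or 3.

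**Figure D4:**
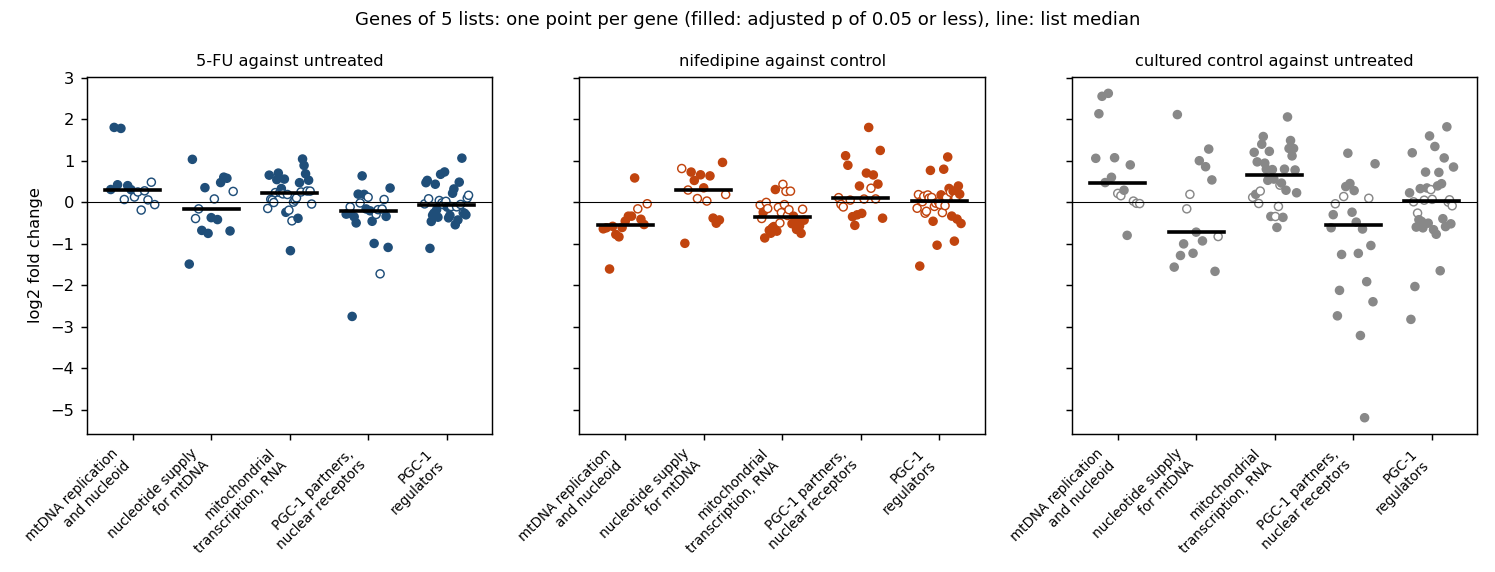
Log2 fold change of the genes of 5 lists in each of the 3 comparisons (left to right, 5-FU against untreated HSCs, nifedipine against control, cultured control against untreated HSCs). Each point is a gene, filled at an adjusted p of 0.05 or less, and the line is the list's median. For replication and nucleoid genes the median was 0.29 with 5-FU, -0.54 with nifedipine and 0.48 in cultured controls.

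The transcription factors and cofactors that PGC-1 proteins bind were examined as a list of 24, of which 23 were tested after 5-FU. Of these, 4 were higher and 11 lower (against 26.7% and 23.8% of all genes tested, list median log2 fold change -0.21). The count lower was 4 with library sizes from the RPKM read total and 6 with the exon length trend removed. Over all genes 1839 and 2904 were lower under these settings. The 4 that rose were Hcfc1, the host cell factor that PGC-1 proteins contact (0.64 ± 0.07), Yy1 (0.34 ± 0.05), Med1 (0.19 ± 0.05) and Gabpb1, a partner subunit of Gabpa (0.20 ± 0.07, with adjusted p 0.0746 to 0.139 without untreated replicate 3 or 4 or any 1 of the 5-FU libraries). Among those that fell were Foxo3, a forkhead factor that guards HSC quiescence, at 299 CPM with 5-FU and 425 CPM in untreated HSCs (-0.50 ± 0.05, adjusted p = 3.57e-05). Thrb, a thyroid hormone receptor, fell to 15.1 CPM with 5-FU, against 32.3 CPM in untreated HSCs (-1.09 ± 0.16). Crebbp was at -0.29 ± 0.04 (adjusted p = 0.000304), which was not past the threshold with library sizes from the RPKM read total (0.191) or with the exon length trend removed (0.439). Esrra, an estrogen-related receptor that PGC-1 proteins coactivate, was low, with 4.13 CPM after 5-FU and 4.48 CPM in untreated HSCs (-0.11 ± 0.21, adjusted p = 0.691).

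With nifedipine 20 of the 24 were tested, and 8 were higher and 5 lower (against 25.8% and 24.2% of all genes tested, list median 0.10). Foxo3 rose to 323 CPM with nifedipine, against 173 CPM in controls (0.89 ± 0.06, adjusted p = 1.87e-09). Foxo1 rose to 46.9 CPM, against 21.5 CPM in controls (1.12 ± 0.10), and Ncoa1 rose to 77.2 CPM, against 47.2 CPM in controls (0.70 ± 0.09). The 5 that fell were Hcfc1 (-0.56), Yy1 (-0.38), Gabpb2 (-0.35), Med1 (-0.30) and Mef2c (-0.27), the last 2 not past the threshold with library sizes from the RPKM read total (0.0502 and 0.0647). Esrra had 3.96 CPM with nifedipine and 4.26 CPM in controls (-0.11 ± 0.31, adjusted p = 0.791). In controls against untreated HSCs 5 of 22 were higher (Hcfc1, Yy1, Med1, Gabpb2 and Mef2c, the last not without untreated replicate 1 or control replicate 3) and 14 lower, those of smallest p being Foxo3 (-1.26), Foxo1 (-2.12) and Ncoa1 (-1.23). Over all genes tested there, 35.8% were higher and 36.1% lower.

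Of 35 genes known to regulate PGC-1 expression or activity, 34 were tested. After 5-FU 9 were higher and 13 lower (against 26.7% and 23.8% of all genes tested, list median log2 fold change -0.05). With nifedipine 8 were higher and 7 lower (against 25.8% and 24.2% of all genes tested, list median 0.02). These splits moved with the scaling. After 5-FU 14 were higher and 4 lower with library sizes from the RPKM read total (5148 and 1839 over all genes). With nifedipine 5 were higher and 15 lower with the exon length trend removed (2315 and 4375 over all genes). Without control replicate 1 or 3 the nifedipine count of higher genes was 5 or 4. Mybbp1a, a repressor that binds PGC-1 alpha, rose to 332 CPM with 5-FU, against 201 CPM in untreated HSCs (0.73 ± 0.06). With nifedipine it fell to 291 CPM, against 594 CPM in controls (-1.03 ± 0.06). Prmt1, an arginine methyltransferase that activates PGC-1 alpha, rose by 1.06 ± 0.09 with 5-FU and fell by 0.94 ± 0.08 with nifedipine. Kat2a, the acetyltransferase GCN5 that silences PGC-1 alpha, rose by 0.67 ± 0.07 with 5-FU. Camk4, a calcium-dependent kinase upstream of CREB, fell to 10.2 CPM with nifedipine, against 29.3 CPM in controls (-1.54 ± 0.22, adjusted p = 1.38e-05).

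The energy sensor AMPK, which phosphorylates PGC-1 alpha, has 2 catalytic subunit genes in the list. Prkaa1 rose to 181 CPM with 5-FU, against 145.5 CPM in untreated HSCs (0.32 ± 0.08, adjusted p = 0.00494), and had 253 CPM with nifedipine and 234 CPM in controls (0.11 ± 0.07, adjusted p = 0.174). Prkaa2 fell by 0.54 ± 0.09 with 5-FU and rose by 1.09 ± 0.17 with nifedipine. Fnip1, a folliculin partner that restrains AMPK and PGC-1 alpha in muscle, fell by 0.36 ± 0.05 with 5-FU and rose by 0.77 ± 0.08 with nifedipine, where Ppp3ca, a catalytic subunit of calcineurin, rose by 0.80 ± 0.09. Nrip1, a corepressor of mitochondrial genes, was at -0.38 ± 0.06 after 5-FU (adjusted p = 0.000421, and 0.996 with the exon length trend removed). Sirt1, the deacetylase that activates PGC-1 alpha, was at 84.4 CPM with 5-FU and 102 CPM in untreated HSCs (-0.27 ± 0.07, adjusted p = 0.0122, and 0.496 with library sizes from the RPKM read total). With nifedipine it fell to 78.5 CPM, against 104 CPM in controls (-0.41 ± 0.08, adjusted p = 0.000347). Myc, a growth factor response gene that also drives mitochondrial biogenesis, had 72.9 CPM with 5-FU and 72.3 CPM in untreated HSCs, and 88.0 CPM with nifedipine and 86.9 CPM in controls (adjusted p = 0.896 and 0.929). In controls against untreated HSCs 13 were higher (against 35.8% of all genes tested), those of smallest p being Mybbp1a (1.60), Prmt1 (1.82) and Parl (1.35). Another 13 were lower (against 36.1% of all genes tested), those of smallest p being Camk2a (-2.82), Prkaa2 (-1.65) and Nrip1, whose -0.66 became 0.40 with the exon length trend removed.

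The genes whose profile over the 15 libraries lay closest to that of 3 of the 10 were found by the root mean square difference of log2 CPM after centring each gene on its mean. Closest to Ppargc1a were Plekhg6 (0.304), Lrp4 (0.423) and Epha1 (0.429). Plekhg6 averaged 6.46 CPM with 5-FU and 14.2 CPM in untreated HSCs, and 1.64 CPM with nifedipine and 1.29 CPM in controls. Among the 3 closest to Pprc1 were the chaperone gene Hspa8 (0.0882) and the splicing factor gene U2af2 (0.0898). Hspa8 averaged 2680 CPM with 5-FU and 1540 CPM in untreated HSCs, and 1810 CPM with nifedipine and 3140 CPM in controls. Closest to Tfam were Ppp2r1a (0.0642), the nucleoporin gene Nup98 (0.0695) and Cnbp (0.0704).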

How the data were processed

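Each library has a deposited table that, per the file headers, lists per feature a raw count of exon reads and the RPKM value that the authors computed from it with exon length and a read total. Per the submitters' processing notes the build is mm10; the sources used here name no aligner or counter. The kit was Nextera XT, per the labels' protocols, so strand is not marked. Each table holds 48737 features, and copies of 1 gene on alternate scaffolds were added up (46123 genes). The counts were used for all tests, and RPKM for levels between genes. The read total behind the RPKM values was recovered as an alternative library size. Chi-square tests of counts within groups found no duplicated library.

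Each comparison was fitted with edgeR 4.0.16 in R 4.3.3 on its own libraries (TMM, filterByExpr, quasi-likelihood F test, two-sided, group as the only term, Benjamini-Hochberg adjustment over all genes tested, calls at 0.05), and the difference of effects over all 15 libraries. The fit was tested on simulated data. Alternatives used limma 3.58.1 (voom), DESeq2 1.42.0, other filters and scalings, offsets that remove the trend with exon length, a replicate block and left-out libraries. The members and lists were chosen with earlier results of these data known. Named genes are the 10 members, up to 3 called genes of smallest p per list and direction, all called genes of a direction with 5 or fewer, and Twnk, Ssbp1, Polrmt, Esrra, Sirt1, Prkaa1 and Myc. Some genes that this rule would name are not reported here. Promoter windows are from RefSeq (GRCm38.p6). Granulocyte and macrophage markers summed to 153 to 166 CPM with 5-FU and 162 to 208 CPM in untreated HSCs, and 220 to 243 CPM with nifedipine and 66.9 to 85.7 CPM in controls. Erythroid and megakaryocyte markers summed to 379 to 445, 198 to 2190, 413 to 478 and 631 to 741 CPM in the same order, and lymphoid markers to 29.1 CPM or less everywhere.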

Additional observations from a re-analysis of the deposited data

Results flagged for a closer look

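The 5-FU and nifedipine effects on 8 of the 10 genes, and on 55.4% of the 14076 genes tested, differed by a test of the difference itself (edgeR over all 15 libraries). The log2 fold change with 5-FU minus that with nifedipine was 1.50 for Pprc1, 0.86 for Tfam, 0.85 for Gabpa, 0.80 for Nrf1 and 0.55 for Polg, and -1.34 for Ppargc1a, -0.99 for Polg2 and -0.52 for Tfb1m. The values of Pprc1, Tfam, Gabpa, Nrf1 and Polg2 passed under all 20 alternatives. For this difference, these did not include removal of the exon length trend, the replicate block or scaffold copies left apart. None of 30 checks for a library far from the others of its group, over the 10 genes and the 3 groups of 4 libraries, was positive.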

How the results depend on the processing

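Library sizes from the RPKM read total moved the median log2 fold change of all genes to 0.17 with 5-FU and 0.19 in controls against untreated HSCs. They gave 5148 genes higher and 1839 lower after 5-FU (3580 and 3185 with TMM), 5848 and 3831 in controls against untreated HSCs (4842 and 4887 with TMM), and a difference of effects that was lower for 1 of the 10 genes in place of 3 (adjusted p = 0.0515 for Ppargc1a and 0.152 for Tfb1m). With the exon length trend removed, 2315 genes were higher and 4375 lower with nifedipine (3298 and 3098 without this step), and 5856 and 3858 in controls against untreated HSCs. In that comparison PGC-1 partners were then 8 higher and 9 lower (5 and 14 without it) and PGC-1 regulators 20 and 8 (13 and 13). That step moved the median of all genes to -0.12 with nifedipine and 0.17 in controls against untreated HSCs, where omitting the filter on low counts moved it to -0.21. Among mitochondrial RNA genes, 2 in place of 1 were higher with nifedipine under the filter at 10 CPM, the replicate block and without control replicate 2 or nifedipine replicate 4, and 0 in place of 3 were lower in controls with the RPKM read total, the block and without control replicate 2. Scaffold copies left apart gave 3 in place of 5 nucleotide supply genes higher in controls.

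Among the 10 genes, signs turned only for those with no call at the settings of the report. Of called genes in the wider lists, Nrip1 (0.40 in controls against untreated HSCs and -0.26 with nifedipine), Ep300 (0.33 in controls), Mef2a (0.20 in controls) and Ncor1 (0.20 after 5-FU) turned sign and passed again with the exon length trend removed. After 5-FU, Tfb1m was at -0.0064 with a filter at 10 CPM, -0.10 with the length trend removed and -0.023 to 0.089 without single libraries. With nifedipine, Ppargc1b was at -0.21 with the length trend removed. In controls against untreated HSCs, Tfb1m was at 0.081 with library sizes from the RPKM read total, Ppargc1b at -0.098 and Polg at -0.093 with the filter at 10 CPM, and without single libraries Ppargc1b lay between -0.017 and 0.11 and Polg between -0.054 and 0.14. The cause was not tested.

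The difference of effects of Ppargc1a also missed the threshold in limma-voom (adjusted p = 0.129), and that of Ppargc1b passed under 6 of 20 alternatives. Without single libraries, 6 of the 10 genes stayed called higher and 2 to 3 lower after 5-FU, 1 higher and 4 to 5 lower with nifedipine, and 5 higher and 2 lower in controls against untreated HSCs. Over all genes, 3129 to 3502 were then higher and 2793 to 3322 lower after 5-FU. The all-gene counts were 2874 to 3109 and 2729 to 3026 with nifedipine. In controls against untreated HSCs they were 4567 to 4809 and 4508 to 4783. The sources used here do not state that replicate numbers pair the samples. Deviations of libraries with the same number correlated at -0.15 to 0.148 in the 5-FU comparison, which cannot exclude a pairing. With the replicate block, 3396 genes were higher and 2936 lower after 5-FU, 3196 and 3087 with nifedipine, and 4598 and 4404 in controls against untreated HSCs, and the counts among the 10 genes did not change (6 and 3, 1 and 4, 5 and 2). Ppargc1a rests on 11 to 50 reads per cultured library.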
